A study of Mus musculus with 16 samples.

Results

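The maturation of mouse retina between postnatal days 14 and 30 (P14 and P30) was examined in control libraries alone, as the change from the libraries labelled P14 CTL1 and P14 CTL2 to those labelled P30 CTL1 and P30 CTL2. These are 4 of the 16 libraries of a study that covers P1, P7, P14 and P30 retina of controls and of mice with a conditional knockout (CKO) of Uxt, a gene for a prefoldin-like chaperone protein. All libraries were made from polyA+ RNA of retina of C57BL/6 mice. The knockout was made by crossing mice with a Cre recombinase driven by a promoter of retinal precursors and bipolar cells, to mice with loxP sites around exon 3 of Uxt. The genotype of the P14 and P30 groups is given only as control, and whether they carry the Cre gene or the loxP sites is not stated in the labels. The 2 libraries of each age are not said to come from separate animals, so p-values measure the spread between these libraries, which may be technical. The control libraries of P1 and P7 entered the fit to share the estimate of the spread and are given beside the results as the earlier course.

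Mouse pups open their eyes at about the age of the younger group, when retinal neurons have all been born but photoreceptors still extend their outer segments, the stacks of membrane in which light is absorbed. Rods, the photoreceptors of dim light, use a cascade in which an activated opsin turns on the G protein transducin, which turns on phosphodiesterase, which lowers cGMP and closes a cation channel. Cones, the photoreceptors of bright light and colour, use a parallel set of proteins. Bipolar cells carry the signal to amacrine and ganglion cells, Müller glia support all of them, and the vessels and the pigment epithelium supply them.

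Levels are counts per 1000000 TMM-scaled reads (CPM), changes are log2 fold changes of P30 over P14 ± SE of the edgeR quasi-likelihood fit, and a gene is called when its Benjamini-Hochberg adjusted p is under 0.05 (n = 2 libraries per age). Total counts were 19690787 and 19286771 at P14 and 16933859 and 15807152 at P30. Of 20314 genes tested, 12275 (60.4%) were called, 5897 (29.0%) higher and 6378 (31.4%) lower at P30, so most list members would be called in any list. At least 2-fold changes were called in 4137 genes (20.4%), 1987 higher (9.78%) and 2150 lower (10.6%). The P30 replicates differed more than the others, at 4.38 chi-square units per degree of freedom against 1.54 at P14. Scaling on the inner retinal neuron lists in place of all genes moved the median change of all genes from near 0 to -0.52. Then 2190 genes were called higher and 12724 lower, so 14.7% of the calls were higher rather than 48.0%. With unscaled library sizes the median was 0.11, and 59.0% of the calls were higher. Changes between 0 and 0.52 therefore have a direction that depends on the scaling, and list medians were lower by about the same 0.52 under the inner neuron scaling. Calls of a rise were lost under it for Rgs7 (0.22), Slc12a2 (0.12), Cngb3 (0.12), Rrh (0.0905), Stra6 (0.0627), Gngt1 (0.0197) and Cd74 (0.85). Genes listed for ganglion, horizontal, amacrine and bipolar cells, Rgs7 among them, set this scale. Their joint change is drawn toward 0 by design, so the inner neuron scaling cannot test the direction of change in those lists. With all 16 libraries in the fit, calls were lost for Slc1a3, Rcvrn, Sdha, mt-Co1, Meg3, Tef, Arntl and Egr2, and with DESeq2 for Arntl and Egr2.

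Defining genes of retina were present in all 4 libraries, the rod list below summing to 8600 and 8578 CPM at P14 and 19670 and 20360 CPM at P30. The P14 and P30 controls also differed in sex-linked genes and in genes of tissues around the retina. Xist, the noncoding RNA of the inactive X chromosome in females, was at 1232 and 1250 CPM at P14 and 0.417 and 0.892 CPM at P30, while the Y-linked Ddx3y was at 0 and 0.0565 CPM at P14 and 79.04 and 84.3 CPM at P30. Xist changed by -10.89 on the log2 scale, or by -11.52 without the second P30 control. Kdm5d, a Y-linked histone demethylase, had no count at P14 and 45.2 and 54.4 CPM at P30, at least 592-fold higher against 3 counts over the group. Eif2s3y and Uty, also on Y, moved alike, from at most 0.111 CPM at P14 to 104 and 119 CPM and 26.2 and 28.5 CPM at P30. The P1 and P7 controls held the Y-linked genes at levels near those of P30, so that age and sex cannot be told apart for any change between P14 and P30 or between P7 and P14. Restricting the adjustment to genes on autosomes gave 11835 calls among 19601 genes, but leaves any effect of sex on autosomal genes in place.

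Rod genes rose further after P14. Of the 15 genes of the rod list, 13 were called higher and 2 lower, with a median change of 1.02. Gnat1, the alpha subunit of rod transducin (chromosome 9, 107674474 to 107679712 of mm10), was at 1311 and 1284 CPM at P14 and 6260 and 6458 CPM at P30. Both P30 libraries stood far above both P14 libraries, a rise of 2.29 ± 0.04 (adjusted p = 1.27e-32) or 4.90-fold. Pde6a, the alpha subunit of rod phosphodiesterase, was at 408 and 413 CPM at P14 and 1520 and 1603 CPM at P30 and rose by 1.93 ± 0.039 (adjusted p = 2.9e-31). Slc24a1, the exchanger that removes calcium from the rod outer segment, was at 257 and 245 CPM at P14 and 981 and 978 CPM at P30, a rise of 1.97 ± 0.04. Esrrb, a nuclear receptor of rods, went from 80.6 and 80.1 CPM to 325 and 358 CPM and rose by 2.09 ± 0.047. The other subunits of the cascade rose less: Pde6b by 1.23, Cnga1 of the channel by 1.09, Pde6g by 1.02, Gnb1 by 0.92, Cngb1 by 0.79 and Gngt1 by 0.54. Reep6, a protein of membrane traffic in rods, rose by 1.38, Nrl, the transcription factor that sets rod fate, by 0.67, and Sag, rod arrestin, by 0.42.

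The rod genes that fell are both regulators. Samd7, a Polycomb-associated repressor of rods, was at 152 and 159 CPM at P14 and 85.3 and 95.9 CPM at P30, with both P30 libraries below both P14 libraries, a change of -0.78 ± 0.05 (adjusted p = 1.19e-15). Nr2e3, a nuclear receptor that represses cone genes in rods, was at 624 and 636 CPM at P14 and 479 and 505 CPM at P30, a change of -0.36 ± 0.037 (adjusted p = 1.18e-10). The median change of the rod list from P7 to P14 was 1.32, against 1.02 afterwards, although its summed level went from 3891 and 3896 CPM at P7 to the sums at P14 and P30 given above, a larger gain in CPM after P14. By member, the difference between the steps was called negative in 10 members and positive in 2, against 25.5% and 19.4% of all genes. Gnat1 had risen by 5.699 ± 0.052 in the earlier step. Pde6b and Nrl were those that rose more in the later step, the difference between steps being 0.51 ± 0.066 for Pde6b (adjusted p = 4.35e-08) and 0.396 ± 0.067 for Nrl (adjusted p = 7.84e-06).

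Most cone genes fell between P7 and P14 and rose afterwards. Of 13 genes, 11 were called higher at P30 and 1 lower, with a median change of 2.13. In the step before, 10 of the same 13 had been called lower and 2 higher, against 20.6% and 23.9% of all genes, with a median of -0.88, and the difference between the steps was called positive in 10. Arr3, cone arrestin, which shuts off cone opsin, was at 25.6 and 25.9 CPM at P7, 17.5 and 19.2 CPM at P14 and 234 and 274 CPM at P30. Its rise after P14 was 3.79 ± 0.076 (adjusted p = 2.28e-19), after a change of -0.49 ± 0.097 from P7 to P14 (adjusted p = 0.00035). The 2 steps of Arr3 differed by 4.28 ± 0.16 (adjusted p = 1.03e-14). Opn1sw, the short-wave cone opsin, was at 85.4 and 81.1 CPM at P7, 40.6 and 42.6 CPM at P14 and 232 and 267 CPM at P30, a change of -1.001 ± 0.063 and then of 2.58 ± 0.059. The P14 libraries were thus the lowest of the 3 ages for both genes.

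Gnat2, cone transducin, followed the same order, with 20.5 and 21.1 CPM at P7, 14.2 and 15.5 CPM at P14 and 93.7 and 111 CPM at P30, and a later rise of 2.79 ± 0.083 (adjusted p = 1.01e-22). The cone phosphodiesterase subunits Pde6c and Pde6h rose by 2.62 ± 0.075 and 2.36 ± 0.087 after changes of -0.74 and -0.901 in the earlier step. Cnga3 of the cone channel rose by 2.13 ± 0.20, its partner Cngb3 by 0.64 ± 0.12. Opn1mw and Thrb were the 2 that had been called higher at P14. Opn1mw, the middle-wave opsin, did not dip, with 0.534 and 0.506 CPM at P7, 6.42 and 5.99 CPM at P14 and 56.5 and 69.02 CPM at P30, rises of 3.56 ± 0.26 and 3.34 ± 0.11. Gngt2, the gamma subunit of cone transducin, was at 80.05 and 88.8 CPM at P7, 13.8 and 11.8 CPM at P14 and 20.98 and 26.8 CPM at P30, so its rise of 0.898 ± 0.12 left it below its P7 level. Rxrg, a nuclear receptor of cones, rose by 1.15 ± 0.14 and Ccdc136, a coiled-coil protein, by 1.64 ± 0.054. Thrb, the thyroid hormone receptor that sets cone opsin choice, rose by 0.58 ± 0.063 from P7, was at 57.8 and 55.8 CPM at P14 and 56.03 and 54.9 CPM at P30 and was not called in the later step (-0.03 ± 0.061, adjusted p = 0.648). Gnb3, a transducin beta subunit shared by cones and ON bipolar cells, changed by -0.14 ± 0.038 (adjusted p = 0.00155), a call lost with unscaled library sizes (adjusted p = 0.527) and with all 16 libraries (adjusted p = 0.156). In whole retina, more cells of a type and more RNA per cell cannot be told apart. The libraries also held RNA of other eye tissues. The lens crystallin list made up 9.68% and 9.83% of the counts at P14 and 2.6% and 2.78% at P30. The part of this changed share in the rises of rod, cone and other retinal genes was not tested.

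**Figure D1:**
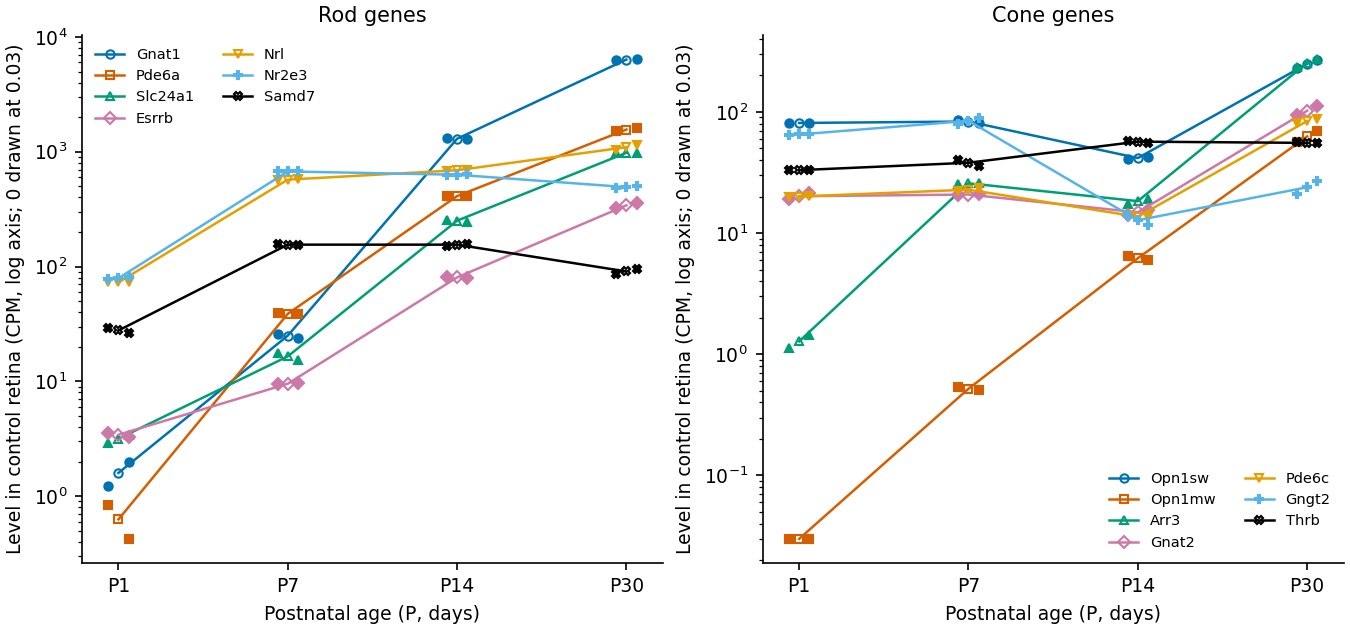
Levels (CPM, log axis) of rod genes (left) and cone genes (right) in the control libraries of P1, P7, P14 and P30; filled points are the 2 libraries of an age, open points their mean, and a level of 0 is drawn at 0.03 CPM. Gnat1, Pde6a, Slc24a1 and Esrrb climb at each age while Nr2e3 and Samd7 end lower at P30 than at P14, and Opn1sw, Arr3, Gnat2 and Pde6c dip at P14 before their highest level at P30.

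The genes of proteins that rods and cones share to tune the cascade were called higher in all 13 listed, with a median change of 1.55. Under the inner neuron scaling 10 were higher and 1 lower, Rcvrn at -0.38, and the median was 1.03. With all 16 libraries in the fit 12 were called higher. Guca1a, a calcium sensor that drives guanylate cyclase, was at 9.96 and 8.14 CPM at P14 and 377 and 449 CPM at P30, a rise of 5.51 ± 0.18 (adjusted p = 6.58e-06) after 11.7 and 12.7 CPM at P7. No exon of Guca1a overlaps another gene in GENCODE M21. Its neighbour and partner Guca1b was at 105 and 108 CPM at P14 and 876 and 892 CPM at P30, a rise of 3.06 ± 0.043. The cyclases they act on, Gucy2e and Gucy2f, rose by 1.55 and 1.27. Rgs9bp, the anchor of the complex that switches transducin off, was at 168 and 174 CPM at P14 and 729.6 and 766 CPM at P30 and rose by 2.13 ± 0.042. The other parts of that complex, Rgs9 and Gnb5, rose by 1.56 and 1.203. Grk1, the kinase that marks active opsin for shut-off, was at 428 and 434 CPM at P14 and 1554 and 1602 CPM at P30 and rose by 1.87 ± 0.036, while recoverin (Rcvrn), which restrains that kinase, changed by only 0.14 ± 0.038 after a rise of 2.77 ± 0.043 in the earlier step.

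Outer segment structure genes were called higher in 12 of 14 and lower in 1, with a median of 0.79, or 9 higher and 4 lower under the inner neuron scaling. Prph2, a rim protein of the disc membranes, was at 1123 and 1119 CPM at P14 and 3034 and 2885 CPM at P30, a rise of 1.400 ± 0.037 (adjusted p = 1.26e-27), and its partner Rom1 rose by 0.97. Abca4, the flippase that clears retinal from the discs, rose by 1.47 and Fscn2, a photoreceptor actin bundler, by 1.98. Impg2, a proteoglycan of the matrix around outer segments, was at 241 and 246 CPM at P14 and 171 and 187 CPM at P30 and changed by -0.44 ± 0.043 (adjusted p = 4.03e-11), while Impg1 of the same matrix rose by 0.71. Photoreceptor synapse genes were called higher in 12 of 13 and lower in none, with a median of 0.71, or 8 higher and 3 lower under that scaling. Cabp4, which tunes the calcium channel of the photoreceptor terminal, rose by 1.52 ± 0.061 from 49.8 and 52.9 CPM to 138 and 157 CPM. The vesicular glutamate transporter Slc17a7 rose by 1.03, the active zone protein Pclo by 1.06 and the channel subunits Cacna1f and Cacna2d4 by 0.99 and 0.93.

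The transcription factors that direct photoreceptor genes moved little by comparison. Crx, which activates rod and cone genes alike, was at 601 and 617 CPM at P14 and 669.7 and 681 CPM at P30, a change of 0.15 ± 0.035 (adjusted p = 0.000415) that turned to -0.37 under the inner neuron scaling. Of the 9 factors listed, 6 were called higher and 3 lower, and their median was 0.15. The inner neuron scaling gave 1 higher and 6 lower and a median of -0.37. Mef2c, a MADS-box factor, rose most, by 1.19 ± 0.053 from 49.6 and 49.8 CPM to 109.6 and 117 CPM. Lhx4, a LIM homeodomain factor, fell from 51.3 and 54.3 CPM to 30.8 and 33.9 CPM, a change of -0.71 ± 0.068, and Prdm1, which holds off bipolar fate, changed by -0.44 ± 0.065.

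The visual cycle, which returns bleached retinal to its light-sensitive form, was called higher in 11 of 12 genes and lower in none, with a median of 0.60. Under the inner neuron scaling 5 were higher and 4 lower. Rbp3, the carrier of retinoids between photoreceptors and pigment epithelium, was at 1287 and 1250 CPM at P14 and 3084 and 2900 CPM at P30, a rise of 1.24 ± 0.037 (adjusted p = 2.85e-26). Rgr, a retinal-binding opsin of pigment epithelium and Müller glia, was at 192 and 195 CPM at P14 and 653 and 672 CPM at P30 and rose by 1.77 ± 0.038. Lrat, which esterifies retinol in the pigment epithelium, was at 28.04 and 27.1 CPM at P14 and 85.3 and 94.6 CPM at P30 and rose by 1.71 ± 0.071. The list of the pigment epithelium, which shares Rrh, Lrat, Stra6 and Rdh5 with the visual cycle list, was called higher in 7 of 7 and summed to 576 and 576 CPM at P14 and 930.3 and 963 CPM at P30, which moves with these genes, and its part in their rise was not tested. Its median was 0.61, or 0.0905 with 2 of 7 higher under the inner neuron scaling. Rdh5 shares 720 exon bases with Bloc1s1 on the same strand, so its counts may be incomplete.

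**Figure D2:**
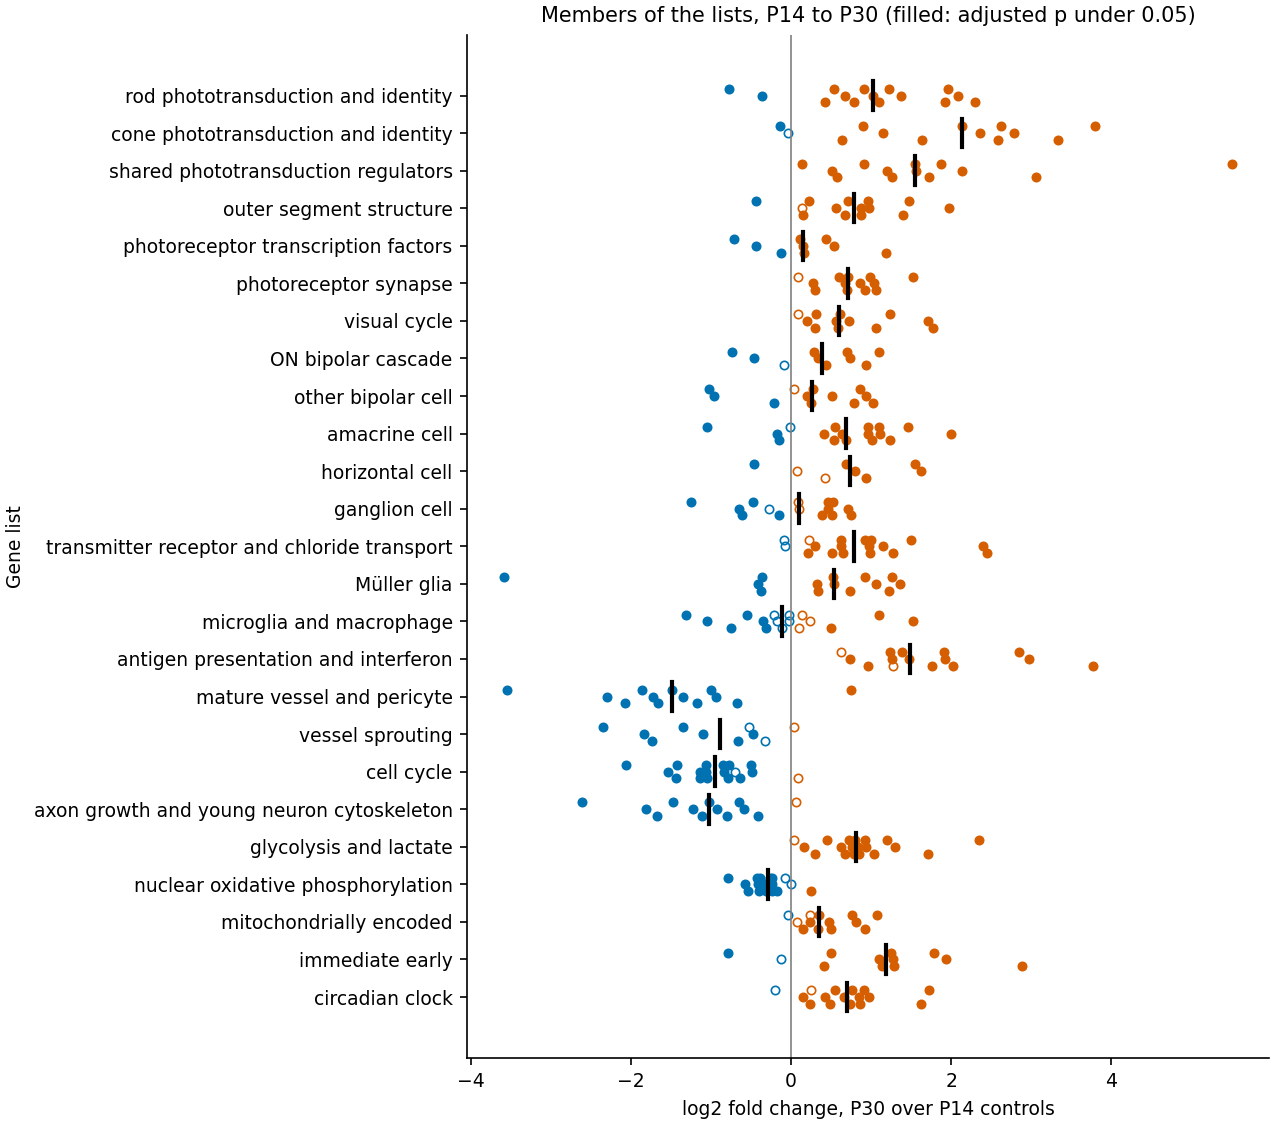
Log2 fold change (P30 over P14 controls) of each tested member of the retinal, glial, vessel and metabolic gene lists, with orange for higher and blue for lower, filled points for called genes, open points for those not called and a black bar at the list's median. The cone list, the shared phototransduction regulators and the antigen presentation and interferon list have medians of 2.13, 1.55 and 1.48, and the vessel, cell cycle and axon growth lists lie mostly left of 0.

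Genes of the ON bipolar cascade moved in both directions. Grm6, through which ON bipolar cells sense glutamate, was at 231 and 229.9 CPM at P14 and 134 and 143 CPM at P30, both P30 libraries lower, a change of -0.73 ± 0.042 (adjusted p = 1.98e-17) after a rise of 0.85 ± 0.042 from P7. Trpm1, the channel that Grm6 controls, was at 467 and 467 CPM at P14 and 320.2 and 358 CPM at P30 and changed by -0.46 ± 0.042 (adjusted p = 3.08e-11). Gpr179, which holds the complex together, was not called (-0.09 ± 0.045, adjusted p = 0.0851), and its change was -0.13 without the first P30 control. Lrit3, needed to place Trpm1 in the membrane, was at 29.7 and 26.8 CPM at P14 and 56.6 and 64.9 CPM at P30 and rose by 1.102 ± 0.076. Gng13, a G protein gamma subunit of the cascade, rose by 0.94 ± 0.14, and the regulators Rgs11 and Rgs7 by 0.702 and 0.74. In the whole ON bipolar list 7 of 10 were called higher and 2 lower, with a median of 0.39 that turned to -0.14 under the inner neuron scaling, with 3 higher and 4 lower. That scale is set in part by these genes and so cannot test their direction. In the earlier step all 10 had been called higher, and the difference between the steps was called negative in 7 and positive in none.

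Of 12 other bipolar genes, 8 were called higher and 3 lower, or 5 and 3 without the second P14 control. Their median of 0.26 became -0.26 under the inner neuron scaling, which these genes also help to set. Irx5, a factor of some cone bipolar cells, was at 17.97 and 17.5 CPM at P14 and 9.001 and 9.24 CPM at P30 and changed by -0.96 ± 0.10. Sebox, a homeobox gene, rose by 1.02 ± 0.12 from 12.001 and 11.5 CPM to 25.2 and 22.4 CPM. Neto1, an auxiliary subunit of kainate receptors, and Grik1, a kainate receptor, rose by 0.93 and 0.86.

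Amacrine genes were called higher in 13 of 17 and lower in 3, with a median of 0.69 that was 0.16 under the inner neuron scaling, with 9 higher and 4 lower. Members of this list help to set that scale, so the smaller median there is no test of their rise. Gad1, which makes GABA, was at 66.5 and 60.1 CPM at P14 and 174 and 176 CPM at P30, a rise of 1.47 ± 0.05 (adjusted p = 2.23e-24), and Gad2 rose by 1.098. Chat, which makes acetylcholine in starburst amacrine cells, was at 2.77 and 2.66 CPM at P14 and 10.1 and 11.5 CPM at P30 and rose by 1.99 ± 0.19. Th, the dopamine enzyme, rose by 1.23 ± 0.30 from 1.38 and 1.13 CPM to 2.92 and 2.995 CPM, and the calcium binder Calb2 by 1.01 ± 0.051. Tfap2c, a developmental transcription factor, was at 41.9 and 43.9 CPM at P14 and 21.3 and 20.3 CPM at P30 and changed by -1.04 ± 0.077. Of 8 horizontal cell genes, 5 were called higher (3 by DESeq2) and 1 lower: Calb1, a calcium binder, rose by 1.63 ± 0.10, and Prox1, a homeodomain factor, changed by -0.46 ± 0.04.

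Ganglion cell genes were called higher in 7 of 15 and lower in 5, with a median of 0.10 that was 0.32 without the second P14 control. The inner neuron scaling gave 1 higher, 8 lower and a median of -0.42. Ganglion cell genes, Pou4f2 included, enter that scale, so these values do not test their direction. Pou4f2, a factor that sets ganglion cell fate, was at 5.25 and 5.48 CPM at P14 and 7.81 and 7.58 CPM at P30, a rise of 0.52 ± 0.15 (adjusted p = 0.0032) that was lost under that scaling. Slc17a6, the vesicular glutamate transporter of ganglion cells, was at 24.6 and 25.3 CPM at P14 and 42.5 and 41.2 CPM at P30 and rose by 0.75 ± 0.076. Rbpms2, an RNA-binding protein, was at 53.6 and 54.5 CPM at P14 and 22.8 and 22.8 CPM at P30 and changed by -1.25 ± 0.075, and its relative Rbpms by -0.61 ± 0.069. Opn4, melanopsin, was not called (-0.27 ± 0.19, adjusted p = 0.209).

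Transmitter receptors and chloride transporters were called higher in 15 of 18 and lower in none, with a median of 0.79. The inner neuron scaling left 9 higher and 3 lower. Glra1, a glycine receptor subunit of mature synapses, was at 1.55 and 1.2999 CPM at P14 and 6.56 and 9.05 CPM at P30 and rose by 2.44 ± 0.25 (adjusted p = 1.51e-10). Gabrr2, a GABA receptor subunit of bipolar cells, was at 8.35 and 9.16 CPM at P14 and 42.3 and 50.3 CPM at P30 and rose by 2.401 ± 0.11. Grin2a, an NMDA receptor subunit of mature synapses, rose by 1.502 ± 0.19. Slc12a5, the exporter that keeps chloride low in mature neurons, was at 373 and 361 CPM at P14 and 841 and 791 CPM at P30 and rose by 1.15 ± 0.038, and Slc12a2, the chloride importer, by 0.64 ± 0.042.

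Müller glia genes were called higher in 10 of 14 and lower in 4, with a median of 0.53. The inner neuron scaling gave 6 higher, 6 lower and a median of 0.0081. Glul, glutamine synthetase, which detoxifies glutamate, was at 772 and 797 CPM at P14 and 1888 and 2122 CPM at P30 and rose by 1.35 ± 0.043 (adjusted p = 1.32e-20). The water channel Aqp4 rose by 1.26 ± 0.063 and the potassium channel Kcnj10 by 1.22 ± 0.08. Dbi, a carrier of acyl-CoA that other tissues also make, went from 1152 and 1184 CPM to 92.8 and 102 CPM, a change of -3.59 ± 0.047. The glutamate transporter Slc1a3, Vim and Sox9 changed by -0.38, -0.41 and -0.37. Among gliosis genes, 5 of 13 were called higher and 3 lower, or 2 and 8 under the inner neuron scaling. Of all 20314 genes, 5897 were called higher and 6378 lower, or 2190 and 12724 under that scaling. Gfap, the filament that rises in injured Müller glia, was at 226 and 226 CPM at P14 and 145 and 151 CPM at P30. Its change was -0.61 ± 0.041, while Serpina3n rose by 2.35 ± 0.091 and Cd44, an adhesion receptor, by 1.91 ± 0.056.

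Microglial genes were called higher in 3 of 17 and lower in 6, or in 2 and 12 under the inner neuron scaling. Among all genes 29.0% were called higher and 31.4% lower, and under that scaling 2190 and 12724 of 20314. The microglial counts of lower genes were thus near those of all genes. Cx3cr1, the fractalkine receptor of microglia, was at 15.7 and 15.5 CPM at P14 and 6.44 and 6.12 CPM at P30 and changed by -1.31 ± 0.13 (adjusted p = 4.77e-11), and Tmem119 changed by -1.05 ± 0.11. The complement gene C1qa was not called (-0.12 ± 0.077, adjusted p = 0.18). Ctss, a lysosomal protease, was at 15.5 and 16.2 CPM at P14 and 43.5 and 47.5 CPM at P30 and rose by 1.52 ± 0.091.

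Genes of antigen presentation and of the interferon response were called higher in 13 of 15 and lower in none, with a median of 1.48. The median was 0.98 without the first P30 control and 1.83 without the second. With the 4 libraries alone 10 were called. In the earlier step 4 had been called higher and none lower, against 23.9% and 20.6% of all genes, so the count higher was near that of all genes. Ifit1, an antiviral protein that interferon induces, was at 2.32 and 2.204 CPM at P14 and 30.997 and 30.7 CPM at P30, with both P30 libraries alike and far above both P14 libraries, a rise of 3.77 ± 0.15 (adjusted p = 2.39e-22). Isg15, an interferon-induced ubiquitin-like protein, was at 4.203 and 3.67 CPM at P14 and 34.6 and 27.3 CPM at P30 and rose by 2.97 ± 0.14. Irf7, a transcription factor of the interferon response, was at 6.03 and 6.84 CPM at P14 and 52.8 and 39.4 CPM at P30 and rose by 2.84 ± 0.15, and Ifit3 was at 11.5 and 12.4 CPM at P14 and 45.8 and 44.04 CPM at P30 and rose by 1.91 ± 0.095. Psmb8 and Psmb9, subunits of the immunoproteasome, rose by 1.92 ± 0.26 and 2.02 ± 0.19. B2m, the light chain of class I antigen receptors, was at 95.1 and 97.4 CPM at P14 and 271 and 189 CPM at P30 and rose by 1.26 ± 0.19 (adjusted p = 0.0048). The P30 replicates did not lie together on the class I and class II genes. H2-K1, a class I heavy chain, was at 150.2 and 154 CPM at P14 and 281 and 185 CPM at P30. It was not called (0.62 ± 0.21, adjusted p = 0.0674). Its change was 0.28 without the first P30 control and 0.88 without the second. Cd74, the chain that guides class II molecules, was at 23.1 and 25.04 CPM at P14 and 82.7 and 42.2 CPM at P30 and rose by 1.38 ± 0.37 (adjusted p = 0.0319), a call lost without either P14 control (adjusted p = 0.137 and 0.118). In each of these genes the first P30 library was the higher one, and both lay above both P14 libraries. H2-K1 belongs to a family of near-identical genes, so its counts are uncertain.

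The core of the interferon-stimulated response element, GAAA, any 2 bases and GAAA again, on either strand, is shown in stretches of the RefSeq promoters (GRCm38.p6) of members that hold it, because these members rose together; capitals mark the matches. The stretches run from 140 to 31 bases before the start of transcription and touch no annotated exon.
Isg15, chr4:156200849-156200958, minus strand: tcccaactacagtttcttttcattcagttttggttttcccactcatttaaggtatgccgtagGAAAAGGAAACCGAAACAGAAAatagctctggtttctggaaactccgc
Ifit1, chr19:34640749-34640858, plus strand: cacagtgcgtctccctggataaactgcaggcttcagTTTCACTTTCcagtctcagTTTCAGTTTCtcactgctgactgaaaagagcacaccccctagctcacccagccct
Ifit3, chr19:34583389-34583498, plus strand: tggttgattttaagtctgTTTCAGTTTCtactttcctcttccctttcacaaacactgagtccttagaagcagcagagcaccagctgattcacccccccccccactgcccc
B2m, chr2:122147547-122147656, plus strand: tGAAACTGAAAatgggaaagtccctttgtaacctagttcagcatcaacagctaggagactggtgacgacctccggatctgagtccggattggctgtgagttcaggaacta
Of the 15 members, 12 had a promoter window of 300 bases in that table, and 4 of them held the core: Isg15, Ifit1, Ifit3 and B2m. Of all 27025 genes with such a window, 3.99% held it. In Isg15 the 3 matches overlap one another, and Ifit1 has 2 separate ones. Ifit3 holds a second match 156 bases before the start, outside the stretch shown. A match describes these letters only and was not tied to binding in these samples.

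**Figure D3:**
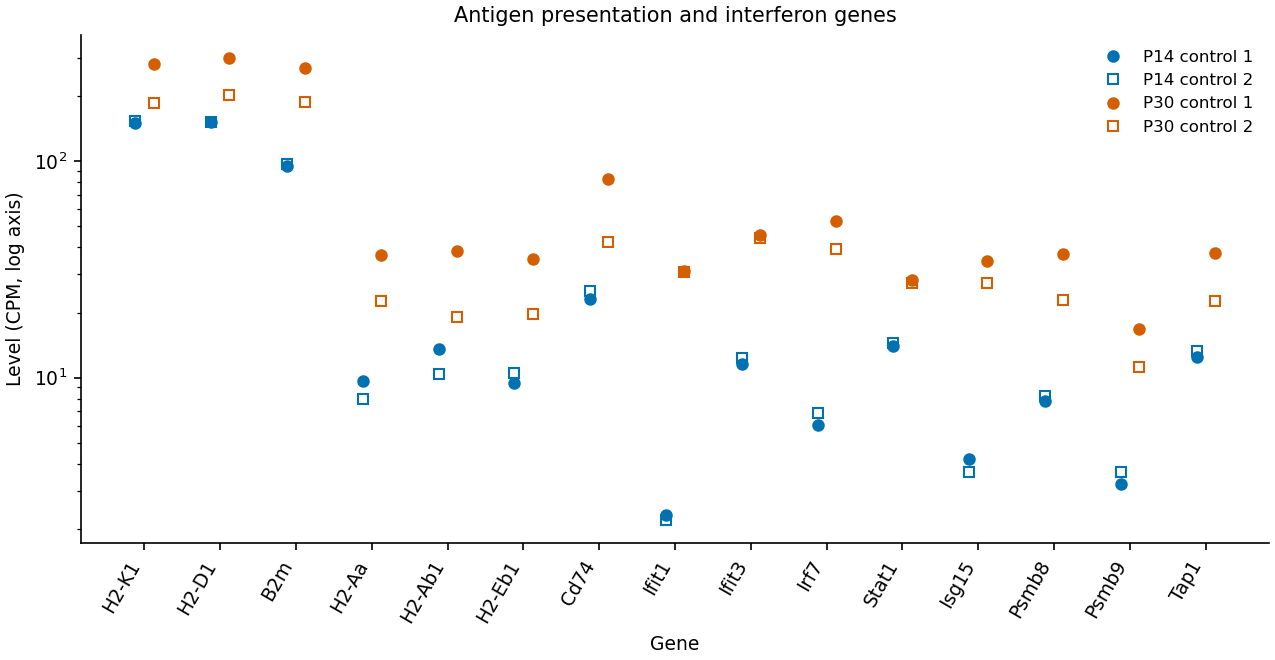
Levels (CPM, log axis) of the 15 genes of antigen presentation and the interferon response in both P14 controls (blue) and both P30 controls (orange); filled circles are the first and open squares the second library of each age. The P30 libraries lie above the P14 libraries in all 15 genes, and in the H2 genes, B2m and Cd74 the first P30 library lies above the second.

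Vessel genes fell. In the mature vessel and pericyte list 12 of 13 were called lower and 1 higher, with a median of -1.49, although 8 had been called higher and 1 lower from P7 to P14. Cdh5, the cadherin of endothelial junctions, was at 67.4 and 62.7 CPM at P14 and 13.2 and 13.2 CPM at P30, a change of -2.303 ± 0.073 (adjusted p = 3.21e-25), and Pecam1 changed by -2.07 ± 0.076. Mfsd2a, a lipid transporter of the blood-brain barrier that is also made elsewhere, was at 74.6 and 77.7 CPM at P14 and 7.03 and 5.99 CPM at P30 and changed by -3.54 ± 0.099. The P14 libraries of Mfsd2a stood at least 4-fold above all other control libraries. Rgs5, a pericyte gene, changed by -1.18 ± 0.046. Flt1, a VEGF receptor, was the exception, at 49.4 and 53.2 CPM at P14 and 82.9 and 88.8 CPM at P30 and a rise of 0.74 ± 0.061 (adjusted p = 4.98e-13). The receptor Kdr, which also marks horizontal cells, changed by -0.68 ± 0.046. Genes of vessel sprouting were called lower in 7 of 10 and higher in none: Apln changed by -2.35 ± 0.17, Dll4 by -1.74 ± 0.16 and Cxcr4 by -1.84 ± 0.15, whereas Vegfa was not called (0.03 ± 0.04, adjusted p = 0.509).

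Connective tissue genes fell with the vessel genes. All 12 of that list were called lower and summed to 23770 and 23420 CPM at P14 and 2453 and 2574 CPM at P30, and the part of such tissue in the fall of vessel genes was not tested. Col3a1, a collagen of vessels and connective tissue, was at 3625 and 3577 CPM at P14 and 86.7 and 73.1 CPM at P30 and changed by -5.49 ± 0.057, and Col1a1 was at 7232 and 6984 CPM at P14 and 275 and 300.4 CPM at P30 and changed by -4.63 ± 0.043. Haemoglobin and Alas2, genes of red cells, were not called (0 of 5, with 0 at an unadjusted p under 0.05 in edgeR and 0 called by DESeq2): their sums were 1059 and 1101 CPM at P14 and 368 and 835 CPM at P30. The P30 replicates differed on them. Their median was -0.33 without the first P30 library and -1.55 without the second, against -0.82 with both.

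Genes of dividing cells and young neurons fell on from P14. Cell cycle genes were called lower in 16 of 18 and higher in none, with a median of -0.95. Mki67, a protein of cycling nuclei, was at 52.1 and 49.001 CPM at P14 and 30.04 and 17.9 CPM at P30, a change of -1.07 ± 0.23 (adjusted p = 0.015) whose call was lost without either P14 control (adjusted p = 0.0727 and 0.0583). Rrm2, which makes DNA precursors, was at 32.5 and 34.6 CPM at P14 and 8.58 and 7.46 CPM at P30, a change of -2.06 ± 0.092. Mcm3 of the replication helicase changed by -1.44 ± 0.092 and Cdk1 by -1.53 ± 0.14. The connective tissue, vessel and surface epithelium lists moved over the same interval, and the cells that these transcripts came from were not tested.

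Of 13 neurogenic precursor genes, 9 were called lower and 1 higher. Sox11 and Sox4, factors of newborn neurons, were at 10.8 and 11.1 CPM and 49.7 and 48.2 CPM at P14 and changed by -2.23 ± 0.14 and -2.02 ± 0.078. Dll1, a Notch ligand, was the one that rose, by 0.69 ± 0.091, a call lost under the inner neuron scaling (0.17). Axon growth and young neuron cytoskeleton genes were called lower in 12 of 13 and higher in none, with a median of -1.03. Marcksl1, an actin regulator, was at 175 and 178 CPM at P14 and 30.1 and 27.8 CPM at P30, a change of -2.61 ± 0.05 (adjusted p = 3.31e-32). Tubb2b, a tubulin of growing axons, changed by -1.68 ± 0.056, Dcx, doublecortin, by -1.48 ± 0.12 and Gap43, the growth cone protein, by -1.12 ± 0.068.

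Imprinted genes of fetal growth were called lower in 7 of 9 and higher in 2. The noncoding RNA H19 was at 799 and 803 CPM at P14 and 10.9 and 8.41 CPM at P30, a change of -6.37 ± 0.06 (adjusted p = 5.9e-41). Dlk1, a growth regulator, was at 56.97 and 53.97 CPM at P14 and 1.01 and 1.53 CPM at P30 and changed by -5.45 ± 0.11, and the growth factor Igf2 by -2.27 ± 0.10, with 3596 of its exon bases shared with an overlapping gene model. The connective tissue list fell over the same interval, as given above, and its part in these falls was not tested. Meg3 and Peg3, imprinted RNAs that neurons express, were those called higher, by 0.08 ± 0.035 and 0.29 ± 0.037, and both turned negative under the inner neuron scaling. The call of Meg3 was lost without either P14 control (adjusted p = 0.277 and 0.164).

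Genes of energy supply moved apart. Glycolysis and lactate genes were called higher in 19 of 20 and lower in none, with a median of 0.81, which stayed positive at 0.29 under the inner neuron scaling with 15 higher and 3 lower. Hk2, the hexokinase that photoreceptors use, was at 65.8 and 64.3 CPM at P14 and 305 and 356 CPM at P30, a rise of 2.35 ± 0.09 (adjusted p = 8.57e-08). Pfkp, a phosphofructokinase, was at 250.04 and 249 CPM at P14 and 777 and 852 CPM at P30 and rose by 1.71 ± 0.041. Aldoc, an aldolase of brain and retina, rose by 1.297 ± 0.04, Pkm, pyruvate kinase, by 0.79 ± 0.035 and the lactate transporter Slc16a1 by 1.03 ± 0.047. Ldha, the lactate dehydrogenase subunit of glycolytic tissue, was at 785 and 769.8 CPM at P14 and 801 and 788 CPM at P30 and was not called (0.03 ± 0.035, adjusted p = 0.451), while Ldhb rose by 0.85 ± 0.048.

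The nuclear genes of oxidative phosphorylation were instead called lower in 15 of 18 and higher in 1, with a median of -0.29. With all 16 libraries in the fit 6 were called lower and none higher. Cox6c, a subunit of cytochrome c oxidase, was at 202 and 198 CPM at P14 and 116 and 115 CPM at P30, a change of -0.79 ± 0.042 (adjusted p = 2.45e-18), and Atp5a1 of the ATP synthase changed by -0.42 ± 0.035. Sdha, of succinate dehydrogenase, was the one called higher (0.25 ± 0.037). From P7 to P14, 14 of these 18 had been called higher and none lower, and the difference between the steps was called negative in 16. Genes encoded by the mitochondrial genome were called higher in 10 of 13, with a median of 0.35 that turned to -0.18 under the inner neuron scaling, and 4 were called with all 16 libraries in the fit. mt-Co2 was at 95.5 and 94.05 CPM at P14 and 187 and 171 CPM at P30, a rise of 0.92 ± 0.049, while mt-Co1, encoding another subunit of the same complex, changed by 0.15 ± 0.033.

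Immediate early genes, which neurons switch on with activity or stress, were called higher in 10 of 12 and lower in 1, with a median of 1.19. Junb, an AP-1 subunit, was at 22.01 and 19.7 CPM at P14 and 86.8 and 73.1 CPM at P30, a rise of 1.94 ± 0.098 (adjusted p = 2.01e-11), and Fos was at 15.04 and 16.4 CPM at P14 and 37.4 and 37.4 CPM at P30, a rise of 1.25 ± 0.088. Npas4, a factor that calcium entry induces in neurons, was at 1.38 and 1.696 CPM at P14 and 5.19 and 5.42 CPM at P30 and rose by 1.78 ± 0.24. Dusp1, a phosphatase that ends MAP kinase signalling, rose by 1.29 ± 0.061, and Egr2 was the one that fell, at 1.77 and 1.41 CPM at P14 and 1.07 and 0.765 CPM at P30, a change of -0.78 ± 0.34 (adjusted p = 0.0456). Its call was lost without the first P14 control (-0.62) or the second P30 control (-0.57).

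Genes of the circadian clock were called higher in 14 of 16 and lower in none, with a median of 0.70, and under the inner neuron scaling 8 were higher and 3 lower. Hlf, an output factor of the clock, was at 73.9 and 66.97 CPM at P14 and 232 and 231 CPM at P30, a rise of 1.72 ± 0.049 (adjusted p = 1.02e-26). Nr1d1, the repressor Rev-erb alpha, was at 54.6 and 53.1 CPM at P14 and 169 and 162 CPM at P30 and rose by 1.62 ± 0.052. Per2 and Per3, which close the loop, rose by 0.97 ± 0.072 and 0.91 ± 0.046, Cry1 by 0.49 ± 0.07 and Ciart, a repressor of the loop, by 0.74 ± 0.16, a call lost with all 16 libraries in the fit (adjusted p = 0.114) and under the inner neuron scaling (0.22). Arntl, the activator that peaks opposite to Nr1d1, was at 65.3 and 61.4 CPM at P14 and 73.4 and 67.2 CPM at P30 and changed by 0.15 ± 0.057 (adjusted p = 0.0196), which became -0.37 under the inner neuron scaling. Its call was also lost without the second P14 control (0.10) or the first P30 control (0.08). The labels do not give the hour of collection.

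The clock's activators bind the E-box CACGTG, which reads the same on both strands. Stretches of the RefSeq promoters (GRCm38.p6) of Ciart and Cry1 show its spacing, with capitals on the matches, again from 140 to 31 bases before the start.
Ciart, chr3:95882259-95882368, minus strand: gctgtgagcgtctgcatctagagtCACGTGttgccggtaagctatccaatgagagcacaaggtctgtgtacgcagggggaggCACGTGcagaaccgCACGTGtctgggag
Cry1, chr10:85185085-85185194, minus strand: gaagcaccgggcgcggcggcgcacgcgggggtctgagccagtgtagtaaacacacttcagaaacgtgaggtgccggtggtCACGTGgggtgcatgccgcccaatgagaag
Of the 16 members, 14 had a window of 300 bases in that table and 5 held an E-box there: Bhlhe41, Ciart, Cry1, Per1 and Tef, against 8.09% of the 27025 genes with a window. Ciart holds 3. Per1 rose by 0.66 ± 0.048, the repressor gene Bhlhe41 by 0.86 ± 0.059 and Tef, an output factor, by 0.24 ± 0.047, or -0.28 under the inner neuron scaling.

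Among the 12 largest rises were the 4 Y-linked genes and Guca1a, named above, and Slurp1 and Psca, secreted and surface proteins of epithelia, which were at 0.442 and 0.396 CPM at P14 and 170.4 and 161 CPM at P30 and at 1.83 and 1.19 CPM at P14 and 263 and 224 CPM at P30. Il1f9, Slc26a4, Pbp2, Ly6g6c and Apol9a made up the rest, with rises from 5.52 (Apol9a) to 6.22 (Il1f9, or 5.47 without the first P30 control). Krt12, the keratin of corneal epithelium, was at 101 and 99.4 CPM at P14 and 1737 and 1816 CPM at P30, a rise of 4.15 ± 0.049 (adjusted p = 2.26e-32), and Aldh3a1, an enzyme abundant in cornea, was at 283 and 267 CPM at P14 and 2610 and 2542 CPM at P30, a rise of 3.23 ± 0.039. All 7 genes of the corneal and surface epithelium list were called higher, and they summed to 1503 and 1449 CPM at P14 and 10760 and 9569 CPM at P30.

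Among the 12 largest falls were genes of lens and of glands. Bpifa6, a secreted protein, was at 4273 and 4406 CPM at P14 and had no count at P30, at least 47000-fold lower against 3 counts over the group. Obp1a, an odorant-binding protein of glands, went from 184 and 190.2 CPM to no count, at least 2030-fold lower, and Il20 and Ugt1a8 were at least 849-fold and 846-fold lower. Mucl2, Pnliprp1 and Aadacl3 also had no count at P30, and Esp6 and Elovl3 had counts in the second P30 library only. The gamma crystallins Cryge, Crygf and Cryga, lens proteins, were at 4839 and 5269 CPM, 5393 and 5497 CPM and 2496 and 2561 CPM at P14 and at most 2.03 CPM at P30. They are near-identical neighbours on chromosome 1, so the split of counts between them is uncertain. Cryga changed by -12.400, or by -11.80 without the first P30 control and -13.34 without the second.

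Lens crystallins were called lower in 15 of 16 and higher in 1, with a median of -3.33, and summed to 105400 and 107200 CPM at P14 and 26240 and 28020 CPM at P30. Crybb2, a beta crystallin that retina also makes, was the one that rose, by 0.48 ± 0.04 from 5062 and 5056 CPM to 6780 and 7362 CPM, and turned to -0.04 under the inner neuron scaling. Fatty acid genes were called higher in 4 of 10 and lower in 5, with a median of -0.05. Among those lower, Elovl5, a fatty acid elongase, was at 3665 and 3719 CPM at P14 and 60.4 and 55.8 CPM at P30, a change of -5.99 ± 0.047, Scd1, a desaturase, at 2261 and 2272 CPM at P14 and 93.8 and 76.4 CPM at P30, a change of -4.73 ± 0.081, and Fasn, fatty acid synthase, at 2303 and 2238 CPM at P14 and 293 and 247 CPM at P30, a change of -3.07 ± 0.069. Elovl5, Scd1 and Fasn each stood at least 4-fold higher at P14 than in every other control library. The fatty acid list summed to 2287 and 2289 CPM at P7, 10240 and 10200 CPM at P14 and 2371 and 2231 CPM at P30. The 308 genes called at least 16-fold lower held 6.44% and 6.58% of the counts at P14 and 0.176% and 0.179% at P30. The 103 called at least 16-fold higher held 0.019% and 0.0184% at P14 and 0.5% and 0.508% at P30.

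A set of 91 genes put the P14 controls apart from all other control libraries, 76 at least 4-fold above and 15 at least 4-fold below each of the other 6. Highest over the others were Xist, the sphingolipid enzyme gene Sptlc3 (136 and 143 CPM at P14), Cyp4a10, Aox4 and the desaturase gene Scd3 (1514 and 1507 CPM at P14 and 3.28 and 3.25 CPM at P30). Abcd4, a transporter of vitamin B12 in lysosomes (chromosome 12, 84601464 to 84617413 of mm10), was at 23.7 and 23.7 CPM at P1, 22.2 and 25.1 CPM at P7, 198 and 203 CPM at P14 and 29.5 and 30.7 CPM at P30. Its P14 libraries stood above all others, with a change of -2.73 ± 0.056 to P30 (adjusted p = 3.15e-31).

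**Figure D4:**
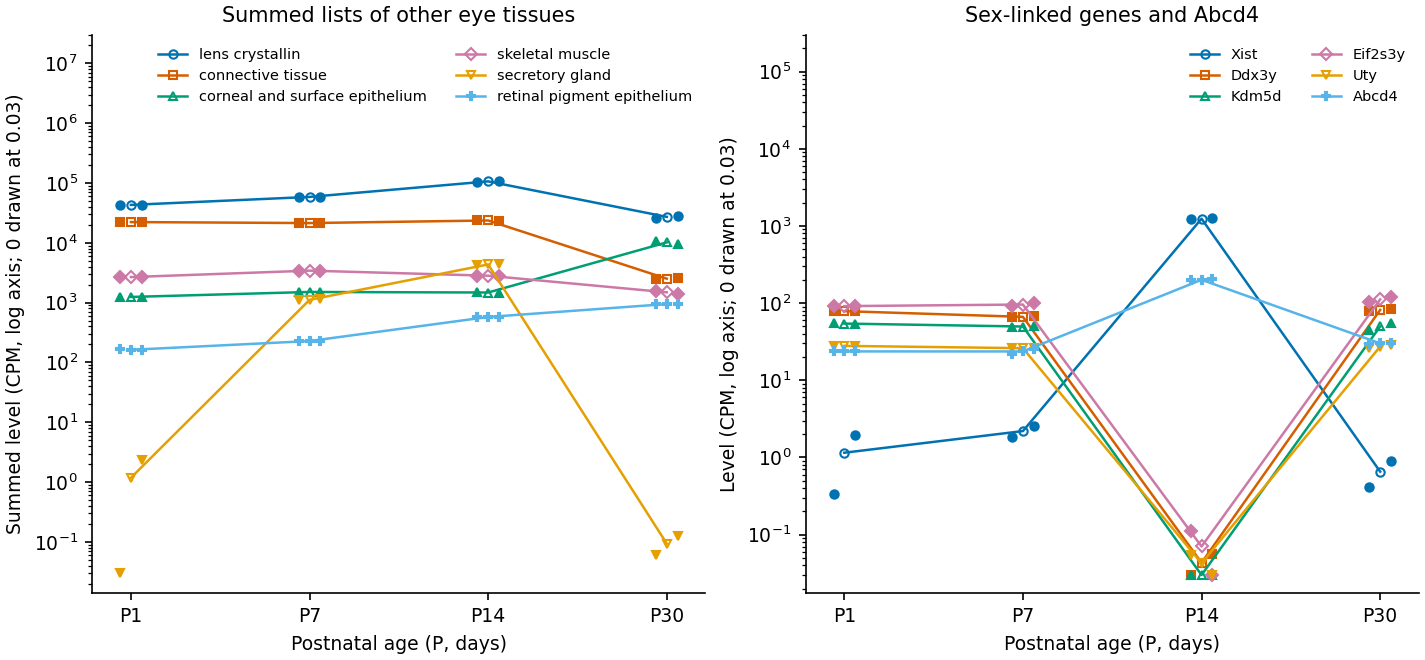
Left, summed levels (CPM, log axis) of lists of tissues around the retina in the control libraries; right, levels of sex-linked genes and Abcd4 (filled points are libraries, open points their mean, 0 drawn at 0.03 CPM). The sums of lens crystallin, connective tissue and secretory gland genes drop from P14 to P30, and that of corneal and surface epithelium genes climbs. Nearly all of the gland sum at P14 comes from Bpifa6 alone. Xist and the Y-linked genes change places at P14 alone.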

How the data were processed

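RNA of control retina was measured at P14 and P30 (2 libraries each), with P1 and P7 controls in the same fit. The authors deposited 1 whole-number count of reads per Ensembl identifier, 54532 in each library, with no normalization. Per the submitters' processing notes, HISAT2 aligned the reads to the mm10 build, and HTSeq made the counts. Versions, annotation and strand setting are not given in the sources used here, so genes with a partner on the other strand, such as Grm6, Opn1sw and Pfkp, cannot be told from it. Symbols were found for 54409 identifiers, and coordinates are from GENCODE M21.

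Genes with low counts were removed by filterByExpr, libraries were scaled by TMM, and edgeR 4.0.16 in R 4.3.3 (glmQLFit, robust, glmQLFTest, two-sided) was fitted to 8 control libraries with 4 age means and 4 residual degrees of freedom. P-values were adjusted by Benjamini-Hochberg over 20314 genes. The difference between steps is the P14 to P30 change minus the P7 to P14 change in that fit. A count of 0 allows 3 counts, 0.166 to 0.191 CPM at P14 and P30. Such limits and the intervals at 95% cover counting error only.

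The 47 lists (555 symbols), the comparison and the named genes were chosen with earlier results of these data known. Genes were named by rule: Uxt, the 12 largest rises and 12 largest falls at 2-fold and 10 CPM, up to 3 members of each list per direction at 5 CPM and the member of highest level, the 5 largest per direction that set P14 apart or differ between steps, sex-linked genes, Crx, Grm6, Glul, Mki67, Pou4f2 and Abcd4. Other list members were named after their values were seen, and Aldoa and Ddit3 each match 2 identifiers.

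Replicate numbers did not pair the libraries: the differences between the replicates of 2 ages correlated across genes by -0.006 to 0.025 (from log2 of CPM + 1). In simulated counts with 200 changed genes, 71.6%, 91.0% and 93.9% of 1.5-fold, 2-fold and 4-fold changes were recovered among 19635 genes. Of the calls 12.8% were false, above the threshold of 0.05. In the data 60.4% of genes were called, so these shares need not hold there. With no gene changed, 5.24% of 19636 genes had an unadjusted p under 0.05. Alternatives were RLE factors, unscaled sizes, TMM without lens genes, scaling on the bipolar, amacrine, horizontal and ganglion lists, no filter, at least 5 CPM in 2 libraries, all 16 libraries, the 4 libraries alone, a replicate block, DESeq2 1.42.0 and each library left out. The restriction to autosomes was chosen after seeing the data. Figures were drawn with matplotlib 3.10.9.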

Additional observations from a re-analysis of the deposited data

Results flagged for a closer look

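For 10 genes the P14 to P30 change differed most from the P7 to P14 change, by the test of that difference in the edgeR fit (log2, later step minus earlier step). Both steps share the P14 libraries, so a gene that stands apart at P14 has steps of opposite sign. Fitted values of genes with a group at 0 depend on the prior count and are no bounds.

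The 5 largest positive differences were in Kdm5d (25.65), Ddx3y (22.09), Eif2s3y (21.37) and Uty (19.17), all on Y and near 0 at P14, and in Crct1 (14.96), a gene of surface epithelium at 17.9 and 17.8 CPM at P7, 0.0553 and 0 CPM at P14 and 2.56 and 1.72 CPM at P30. The 5 largest negative differences were in Bpifa6 (-21.56), Xist (-20.02), Ugt1a8 (-17.26), Il20 (-16.82) and Sptlc3 (-16.29). Bpifa6 was at 871 and 906 CPM at P7 and 4273 and 4406 CPM at P14. Xist was at 1.87 and 2.53 CPM at P7 and 1232 and 1250 CPM at P14. Il20 was at 7.36 and 8.19 CPM at P7 and 78.1 and 78.8 CPM at P14, and Ugt1a8, which shares exons with the other Ugt1a genes, at 5.603 and 5.77 CPM and 79.3 and 76.98 CPM. Sptlc3 was at 3.74 and 3.34 CPM and 136 and 143 CPM. Xist had at most 0.892 CPM and Sptlc3 at most 0.119 CPM at P30, where the other 3 had no count. The change of Crct1 after P14 was 8.30 or 5.12 without the first or second P14 control, against 5.96 with both.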

How the results depend on the processing

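The count of called genes, 12275, was 9943 with DESeq2, 11193 with all 16 libraries, 10389 at 5 CPM, 14914 under the inner neuron scaling and 12267 with the replicate block, and 10793 to 11788 with 1 library left out. Each was within 1.5 times, as were the 9126 genes whose steps differed (6682 with DESeq2, 7017 to 9546 with 1 library left out, 69.3% positive with unscaled sizes and 31.9% under the inner neuron scaling against 43.2%). Genes called at 2-fold or more numbered 4137, or 2515 at 5 CPM and 3961 to 4131 with 1 library left out, of which 48.0% were higher and 18.1% under the inner neuron scaling. The set with P14 apart held 91 genes, or 263 at 2-fold and 41 at 8-fold. The replicate block changed the call of none of the 215 genes named here.

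Under the inner neuron scaling the sign turned for Pou4f2 (-0.0025), Cry1 (-0.0376), Crybb2 (-0.0389), Sag (-0.10), Peg3 (-0.23), Sdha (-0.27) and Tef (-0.28). It also turned for mt-Co1 (-0.37), Arntl (-0.37), Crx (-0.37), Rcvrn (-0.38), Meg3 (-0.44), Ldha (-0.49) and Vegfa (-0.49). Among lists, the median turned for ON bipolar (-0.14), mitochondrially encoded (-0.18), cholesterol synthesis (-0.18), heat shock (-0.22) and other bipolar (-0.26) genes. The medians of photoreceptor factor (-0.37), gliosis (-0.39), myelin (-0.41), ganglion cell (-0.42) and pigment cell (-0.44) genes turned as well. Both bipolar lists and the ganglion cell list, with Pou4f2, help to set that scale, so their turns do not test their direction. With unscaled sizes the sign turned for Gpr179 (0.0222) and Thrb (0.0778). The medians of the fatty acid (0.0611), p53 target (0.0265) and splicing factor (0.0959) lists turned there too. The cause of these shifts was not tested beyond the shift of the median of all genes given above. Without 1 library, 9 of the named genes lost a call or gained one in at least 1 of 4 fits. Such a fit takes no spread from the age with 1 library left, so a call gained there adds no support. At these depths a count of 0 cannot be told from 0.191 CPM, and with 2 libraries per age the spread rests on 4 residual degrees of freedom.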

Other observations

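Cholesterol synthesis genes were called higher in 10 of 17 and lower in 6, with a median of 0.34 that became -0.18 under the inner neuron scaling. Msmo1, a sterol oxidase, was at 43.3 and 44.03 CPM at P14 and 92.99 and 82.8 CPM at P30 and rose by 1.01 ± 0.061 (adjusted p = 1.13e-16). Sqle, squalene epoxidase, was at 378 and 370.02 CPM at P14 and 125 and 106 CPM at P30, a change of -1.69 ± 0.056, and Insig1, a brake on the pathway, changed by -0.71 ± 0.068. Elovl4, which makes the very long chains of photoreceptor membranes, was at 175 and 169.8 CPM at P14 and 287 and 309 CPM at P30 and rose by 0.79 ± 0.043, against the fall of Elovl5 given above, and 1 fatty acid gene was called higher and 6 lower under the inner neuron scaling.

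Genes of protein folding in the endoplasmic reticulum were called lower in 8 of 11 and higher in 2: Calr, a calcium-binding chaperone, was at 648 and 643 CPM at P14 and 342 and 396 CPM at P30 and changed by -0.81 ± 0.054, and Hspa5, the main chaperone there, by -0.703 ± 0.051. Of 7 heat shock genes 4 were called higher and 2 lower, among them Hspa1b at 39.9 and 40.1 CPM at P14 and 200.3 and 185 CPM at P30, a rise of 2.27 ± 0.055; its near-identical copy Hspa1a rose by 1.72 ± 0.079, and the split between them is uncertain. Myelin genes were called higher in 3 of 6 and lower in 2. Mobp, a myelin protein, was at 96.8 and 94.4 CPM at P14 and 214 and 232 CPM at P30 and rose by 1.22 ± 0.048, while Cnp changed by -0.92 ± 0.056. Pmel, which builds pigment granules, was at 877 and 872 CPM at P14 and 265 and 323 CPM at P30 and changed by -1.57 ± 0.085. Of 7 pigment cell genes 1 was called higher and 3 lower, and of 4 astrocyte genes 1 higher and 3 lower. Lens fibre genes were called lower in 10 of 12 and higher in 1, and secretory gland genes lower in 6 of 7 and higher in none. From P7 to P14, 6 of the gland genes had already been called lower and 1 higher. The gland sums at P14, 4281 and 4414 CPM, were nearly all Bpifa6. Of 12 skeletal muscle genes 11 were called lower and 1 higher, among them Myh8, a developmental myosin, at 144 and 152 CPM at P14 and 19.7 and 16.8 CPM at P30 and a change of -3.02 ± 0.058. Of 12 p53 target genes 3 were called higher and 4 lower, and of 7 neuronal splicing factors 3 were higher and 2 lower. Among all genes 29.0% were called higher and 31.4% lower. Of 9 prefoldin and partner genes 1 was called higher and 4 lower (2 by DESeq2). Under the inner neuron scaling the counts higher and lower were 0 and 9 for protein folding, 2 and 4 for heat shock, 2 and 4 for myelin, 0 and 7 for pigment cell, 0 and 10 for p53 target, 0 and 5 for splicing factor and 0 and 8 for prefoldin genes. Over all 20314 genes tested the counts were 2190 higher and 12724 lower under that scaling. With unscaled library sizes 4 protein folding genes, 2 p53 target genes and 1 prefoldin or partner gene were called lower. Uxt was at 5.59 and 7.86 CPM at P14 and 5.07 and 4.59 CPM at P30, a change of -0.47 ± 0.18 (adjusted p = 0.0229) whose call was lost without the second P14 control (-0.21) or the second P30 control (-0.41), with unscaled library sizes (-0.36) and by DESeq2 (adjusted p = 0.12).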
